A study of Mus musculus with 8 samples.

Results

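The genes described here are 10 AP-1 and immediate early genes, chosen by symbol: Fos, Fosb, Fosl1, Fosl2, Jun, Junb, Jund, Atf3, Ier2 and Nr4a1. The choice was made with earlier results of these data known, so shares and medians set beside all genes are descriptions only. All 10 were among the 23420 gene symbols of the deposited counts, and all 10 were among the 13316 genes that passed the filter on low counts. The RNA-seq libraries came from cultured C57BL6/N mouse embryonic fibroblasts, cells that carried E1A, an adenoviral oncoprotein, and HRasV12, an activated Ras. Of the 8 libraries, 4 were labelled wild-type and 4 Neat1-/- (Neat1 null), so the cells of both groups carry E1A and HRasV12 and the groups differ by label only in Neat1, a long noncoding RNA around which nuclear paraspeckles assemble. Per the labels the cells grew in serum-containing medium, with no serum withdrawal or stimulation named. Nothing is said of separate embryos or cultures, so p-values reflect only how much these libraries vary. By the sex marks given below the Neat1 null group holds both sexes, so its spread would not be only technical. For the wild-type libraries, all marked female, the labels do not settle how far the spread is technical. The comparison asks which of the genes differ in level between transformed fibroblasts with and without Neat1.

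AP-1 is a family of transcription factors that bind DNA as pairs. A Jun protein (Jun, Junb, Jund) pairs with a second Jun protein or with a Fos protein (Fos, Fosb, Fosl1, Fosl2), and Fos proteins need a Jun partner; Atf3 is a related stress-induced factor that also pairs with Jun proteins. Many of these genes are immediate early genes, whose transcription rises within minutes of serum, growth factor or stress signals without new protein synthesis. Ras signalling through the Raf, Mek and Erk kinases is a classical input to them, and Fosl1 in particular is known to accumulate in Ras-transformed fibroblasts. Ier2 encodes a small nuclear protein of the same early response, and Nr4a1 a nuclear receptor that acts without a known physiological ligand.

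Levels are given in CPM (counts per 1000000, with TMM-adjusted library sizes), and differences as log2 fold changes, Neat1 null minus wild-type, with the standard error (SE) and the p-value of edgeR's quasi-likelihood test adjusted over all genes tested (threshold 0.05). Total counts assigned to genes ranged from 31651625 to 37069334 in wild-type and from 19651035 to 38950207 in Neat1 null libraries. Neat1 itself lay between 138 and 1320 CPM in wild-type and between 6.12 and 11.3 CPM in Neat1 null libraries, with no overlap (log2 fold change -6.44, SE 0.66, adjusted p = 0.000761). Xist and 4 Y-linked genes marked Neat1 null libraries 1, 2 and 4 as male and the other 5 libraries as female. The libraries also differed in how counts varied with gene length. The slope of log2 CPM on log2 exon length, each gene set against its mean over the libraries, was 0.135 to 0.245 in wild-type libraries, -0.314 and -0.477 in Neat1 null libraries 1 and 3, and 0.00751 and -0.0530 in Neat1 null libraries 2 and 4. Of 12 fibroblast markers 11 were tested, with Fn1 at 431 to 1389 CPM and Twist1 at 22.2 to 70.4 CPM, while the collagen gene Col1a1 was at 1.29 to 12.4 CPM and Lum was at or near 0. The summed level of the 12 was 653 to 1277 CPM in wild-type and 523 to 1492 CPM in Neat1 null libraries. Of 5 macrophage or leukocyte markers in the counts, Ptprc was at 0 in all 8 libraries, but Cd68 had 8.88, 102, 68.2 and 92.4 CPM in wild-type and 3.68 to 18.3 CPM in Neat1 null libraries, and the summed list 9.36 to 102 and 4.13 to 18.7 CPM. Of 5 endothelial markers, Pecam1 was at 0.32 CPM or less, while Kdr reached 9.26 CPM and Emcn was at 16.7 and 39.7 CPM in wild-type libraries 1 and 3 and at 0.031 CPM or less in the other 6. The summed endothelial list was at 4.97 to 44.3 CPM in wild-type and 0.359 to 2.60 CPM in Neat1 null libraries. The epithelial gene Epcam lay between 26.9 and 64.6 CPM and Krt18 between 149 and 3144 CPM, with Neat1 null library 1 the highest. Summed epithelial markers were at 195 to 634 CPM in wild-type and 250 to 3182 CPM in Neat1 null libraries. By the test defined above, Pdgfra, Cd68 and Map2 fell and S100a4 rose among all markers listed. The part of these differences in the results below was not tested, except where values are given. In bulk RNA, fewer cells of a kind and less RNA per cell cannot be told apart.

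Of the 10 genes, 4 were higher in Neat1 null libraries and 0 were lower. The risers were Atf3, Ier2, Nr4a1 and Jund, at 2.77 to 5.41 times the wild-type mean. Over all genes tested, 9.97% were called higher and 7.72% lower (17.7% in all), or 1328 and 1028 genes. With upper-quartile scaling the split was 1036 higher and 1428 lower, and the same 4 members were called. DESeq2 called the same 4 genes higher and 0 lower, against 15% of genes called higher and 26.1% called in either direction by that tool. At an unadjusted p under 0.05 the counts were also 4 higher and 0 lower. In this fit at least the 17.7% called above also pass that looser cut. The exact share of all genes is not given, here or for such counts below. The other 6, among them Fos and Jun, did not pass the threshold. The median log2 fold change of the 10 was 0.58, beside -0.06 for all genes tested. Neat1 null libraries lay wholly above wild-type libraries for 2 of the 10, Ier2 and Jund, beside 11.7% of all genes tested. At an adjusted p under 0.01 none of the 10 and 7 of all genes remained past the threshold. Without wild-type library 3 or wild-type library 4 no member passed (4 at an unadjusted p under 0.05 in each case), and without Neat1 null library 3 only Nr4a1 did, while all genes called numbered 18, 11 and 13. No call changed sign in any of the 8 fits with 1 library left out.

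**Figure D1:**
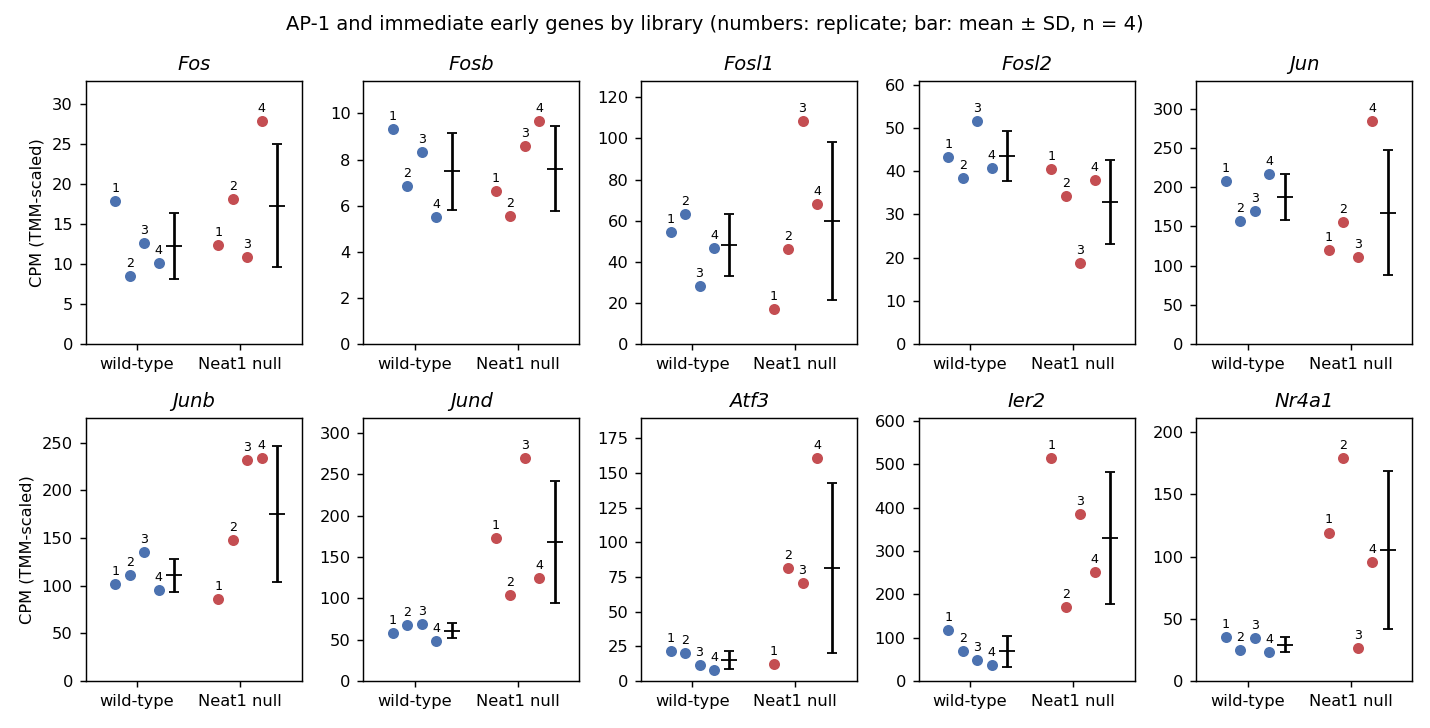
Level of each of the 10 genes in each library, in CPM on a linear axis from 0 (blue, wild-type; red, Neat1 null; digits, replicate numbers; black, mean ± SD of 4 libraries). Only Jund and Ier2 have every Neat1 null library above every wild-type library, and Atf3 and Nr4a1 each have 1 Neat1 null library within the wild-type range.

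Among the Jun genes, which supply the partner that every AP-1 pair needs, Jund rose and Jun and Junb did not pass. Jund, the most steadily expressed of them in resting cells, lies at chr8:70698949-70700616 (GRCm38, plus strand, a gene of 1 exon). It had 58.2, 67.1, 68.6 and 48.5 CPM in the wild-type libraries and 173, 104, 270 and 124 CPM in the Neat1 null libraries. The groups did not overlap, and Neat1 null libraries 1 and 3 were the highest. The log2 fold change was 1.47 (SE 0.37, adjusted p = 0.0216). When the counts of every library were adjusted for exon length and GC (the length and GC correction) it was 0.66 (adjusted p = 0.0799), and without Neat1 null libraries 1 and 3 it was 0.90 (adjusted p = 0.144). Jund shares 877 exon bases with the antisense gene Gm11175, and the strand setting of the counting is not given in the sources used here, so part of its counts is uncertain.

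Jun, the founding member of the family and a target of the Jnk kinases, lies at chr4:95049034-95052222 (minus strand, 1 exon). It had 208, 157, 170 and 217 CPM in wild-type and 120, 156, 111 and 284 CPM in Neat1 null libraries. Of the 4 Neat1 null libraries, 3 lay below every wild-type library and library 4 lay above every one. The groups differed by -0.16 on the log2 scale (SE 0.38, adjusted p = 0.775), with 2 SE either side spanning -0.92 to 0.59. Without Neat1 null library 3 the value was 0.0032.

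Junb, a Jun protein that can oppose Jun at some genes, lies at chr8:84974484-84978718 (minus strand). It had 102, 111, 135 and 95.5 CPM in wild-type and 86.4, 148, 232 and 234 CPM in Neat1 null libraries. Here 3 Neat1 null libraries lay above the wild-type range and library 1 lay below it. The difference was 0.66 on the log2 scale (SE 0.38, adjusted p = 0.215). Jun and Junb share 232 and 173 exon bases with the opposite-strand genes Junos and Prdx2, which touches their counts as for Jund.

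None of the 4 Fos genes passed the threshold, the Ras-associated Fosl1 included, beside the 17.7% of all genes that did. The unadjusted p of all 4 was also above 0.05, at 0.236 for Fos, 0.957 for Fosb, 0.509 for Fosl1 and 0.245 for Fosl2, and DESeq2 called none of them. Fos, the most transient of the family, lies at chr12:85473890-85477273 (plus strand). It had 17.8, 8.53, 12.6 and 10.1 CPM in wild-type and 12.4, 18.1, 10.8 and 27.8 CPM in Neat1 null libraries, ranges that overlap, with Neat1 null library 4 the highest. The difference was 0.50 on the log2 scale (SE 0.40, adjusted p = 0.387).

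Fosl1, which encodes Fra-1, lies at chr19:5447547-5455946 (plus strand), on the same chromosome as Neat1. It had 54.3, 63.4, 28.1 and 46.8 CPM in wild-type and 16.9, 46.3, 108 and 67.9 CPM in Neat1 null libraries. Both the lowest and the highest of the 8 values were Neat1 null, 6.41-fold apart, against 2.26-fold within wild-type. The log2 fold change was 0.32 (SE 0.47, adjusted p = 0.649, 2 SE either side -0.62 to 1.25), and it turned to -0.13 without Neat1 null library 3 and to -0.29 after the length and GC correction. Fosl1 shares 1163 of its 2033 exon bases with the opposite-strand gene Ccdc85b, the largest overlap of the 10, so its counts are uncertain in the same way.

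Fosl2, which encodes Fra-2, lies at chr5:32135801-32157842 (plus strand). It had 43.2, 38.3, 51.5 and 40.7 CPM in wild-type and 40.4, 34.3, 18.9 and 37.9 CPM in Neat1 null libraries, where 3 of 4 lay below the lowest wild-type library. The difference was -0.40 on the log2 scale (SE 0.33, adjusted p = 0.398). With sex added as a term, a fit in which library 3 alone of the Neat1 null group has the sex of the wild-type libraries, it was -1.20 (adjusted p = 0.0488). Fosb, at chr7:19302696-19310051 (minus strand), ranged from 5.50 to 9.31 CPM in wild-type and from 5.54 to 9.66 CPM in Neat1 null libraries. The Fosb groups covered nearly the same range, with a log2 fold change of 0.02 (SE 0.39, 2 SE either side -0.76 to 0.81).

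Atf3, a stress-induced partner of the Jun proteins that is also a known p53 target, had the largest log2 fold change of the 10. It lies at chr1:191170296-191218039 (minus strand). It had 21.3, 19.9, 11.3 and 7.55 CPM in wild-type and 12.0, 81.2, 70.6 and 161 CPM in Neat1 null libraries. Neat1 null library 1 lay within the wild-type range, and the other 3 lay far above it. The groups differed by 2.44 on the log2 scale (SE 0.60, adjusted p = 0.0201), 1.87 without Neat1 null library 4 (adjusted p = 0.0312) and 2.12 after the length and GC correction (adjusted p = 0.0498). It did not pass with the replicate number as a block (2.16, adjusted p = 0.0707) or with sex as a covariate (2.23, adjusted p = 0.0787).

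Ier2 was the other gene whose groups did not overlap. This gene of 1 exon at chr8:84661331-84662852 (minus strand) had 118, 70.1, 47.8 and 37.0 CPM in wild-type and 515, 170, 386 and 251 CPM in Neat1 null libraries. As for Jund, libraries 1 and 3 were the highest of the Neat1 null group, and the lowest of that group was library 2. The log2 fold change was 2.28 (SE 0.47, adjusted p = 0.0180). It was 1.43 after the length and GC correction (adjusted p = 0.0457) and 1.63 without Neat1 null libraries 1 and 3 (adjusted p = 0.144).

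Nr4a1, the early nuclear receptor also called Nur77, lies at chr15:101254269-101274795 (plus strand). It had 35.0, 24.9, 34.2 and 23.0 CPM in wild-type and 119, 179, 26.2 and 95.9 CPM in Neat1 null libraries. Neat1 null library 3, marked female, lay within the wild-type range. The other 3, all marked male, were well above it. The log2 fold change was 1.85 (SE 0.47, adjusted p = 0.0217) and 2.18 without library 3 (adjusted p = 0.0331). After the length and GC correction it kept its size at 1.82 but did not pass (adjusted p = 0.0549). With sex as a covariate it was -0.16 (adjusted p = 0.803), since that fit sets the wild-type libraries, all female, against library 3 alone among the Neat1 null libraries.

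**Figure D2:**
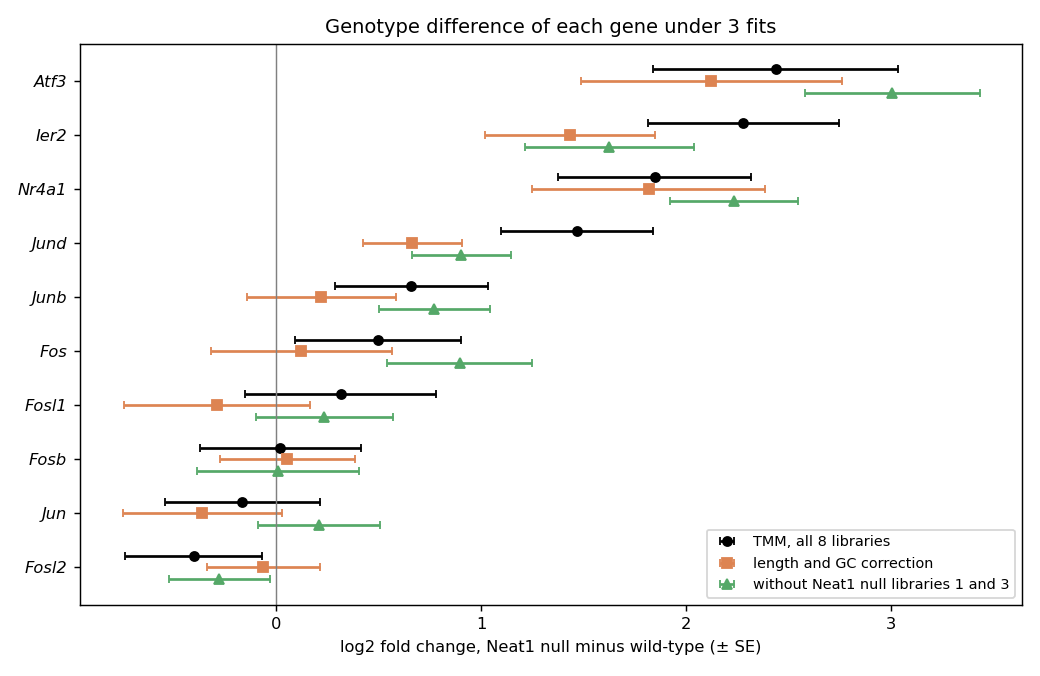
Log2 fold change of each gene (Neat1 null minus wild-type, ± SE) in the fit with all 8 libraries (black), after the length and GC correction (orange) and without Neat1 null libraries 1 and 3 (green). Jund moves from 1.47 to 0.66 and 0.90 and Ier2 from 2.28 to 1.43 and 1.63, while Nr4a1 stays between 1.82 and 2.23. The Neat1 null libraries kept in the green fit are all marked male and the wild-type libraries female, so genotype and sex cannot be told apart there. With sex as a covariate, a fit not drawn, Nr4a1 was at -0.16.

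The sequence before the start of Atf3 and Nr4a1, the risers whose RefSeq start lies at or within 7 bases of an annotated transcript start, is shown beside that of Fos, which did not pass, to set the same early-response element side by side. Sequences are the 250 bases before the RefSeq start (GRCm38.p6), on the gene's strand. Capitals mark the core TGACG of the cyclic AMP response element (CRE) on either strand, where it may be part of the full site TGACGTCA, and the TATA box TATAAA.
Atf3, chr1:191183334-191183583, minus strand: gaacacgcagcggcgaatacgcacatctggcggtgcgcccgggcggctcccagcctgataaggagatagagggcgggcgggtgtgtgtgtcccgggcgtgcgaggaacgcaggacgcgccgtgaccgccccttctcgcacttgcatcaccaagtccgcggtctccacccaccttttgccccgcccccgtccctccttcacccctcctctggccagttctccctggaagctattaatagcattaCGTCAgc
Nr4a1, chr15:101266596-101266845, plus strand: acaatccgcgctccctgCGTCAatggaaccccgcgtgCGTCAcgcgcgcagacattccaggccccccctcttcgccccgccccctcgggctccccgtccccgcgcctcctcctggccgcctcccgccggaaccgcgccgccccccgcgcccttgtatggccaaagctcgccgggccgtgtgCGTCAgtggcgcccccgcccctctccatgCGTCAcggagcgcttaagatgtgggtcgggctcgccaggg
Fos, chr12:85473640-85473889, plus strand: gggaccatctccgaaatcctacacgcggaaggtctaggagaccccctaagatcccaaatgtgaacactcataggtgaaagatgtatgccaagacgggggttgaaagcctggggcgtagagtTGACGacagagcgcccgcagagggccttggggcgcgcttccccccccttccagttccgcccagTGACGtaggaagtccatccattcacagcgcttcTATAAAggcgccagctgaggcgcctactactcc
The Nr4a1 window held 4 CRE cores, the Fos window 2 and the Atf3 window 1, which begins 7 bases before the RefSeq start and reads as CGTCA. Of 32851 windows of the same length, 17.8% held at least 1 core and 0.137% held 4 or more. The Fos window held TATAAA, found in 12.4% of windows. The Atf3 and Nr4a1 windows, set by their RefSeq starts, did not. The full CRE (1.55% of windows), the AP-1 site TGACTCA (4.46%) and the CArG box bound by serum response factor (1.47%) were in none of these windows. The search covered only these 250 bases, so sites farther upstream or after the start would not be seen. Of the 10 genes 8 had an entry, and Fosl1 and Ier2 did not. The core was also found once each in the Fosb and Junb windows, and not in those of Jun, Jund or Fosl2, so it was in windows of genes that passed and of genes that did not. The Jund entry lies upstream of the gene model used for its coordinates. The Atf3 and Nr4a1 windows lie inside the full gene span, before an internal transcript start.

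To compare the genes with each other, levels were divided by exon length (CPM per kilobase, kb). In wild-type libraries Jun was the highest at 58.9 ± 9.15 CPM per kb (mean ± SD, n = 4), then Junb at 48.2 ± 7.49, Ier2 at 44.8 ± 23.5 and Jund at 36.3 ± 5.55. The mean ± SD ranges of neighbours in this order overlapped. Fosl1 followed at 23.7 ± 7.37 CPM per kb, and was the highest Fos gene. Nr4a1 (8.34 ± 1.77), Atf3 (6.96 ± 3.10), Fos (5.21 ± 1.73) and Fosl2 (4.49 ± 0.595) also overlapped their neighbours but not Fosl1, and Fosb, clear of the rest, was the lowest at 1.20 ± 0.267. In Neat1 null libraries the order began with Ier2 at 217 ± 99.9 and Jund at 101 ± 44.3 CPM per kb, followed by Junb at 76.1 ± 31.0 and Jun at 52.6 ± 25.1. Fos, Fosl2 and Fosb remained the 3 lowest, at 7.34 ± 3.26, 3.40 ± 0.999 and 1.22 ± 0.297.

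Within the families, Fosl1 made up most of the Fos family signal per kb in 7 of 8 libraries. Its share was 53.5% to 78.2% in wild-type and 44.1% to 87.1% in Neat1 null libraries, and that of Fos was 9.10% to 20.7% and 7.52% to 28.0%. Both ranges overlap. In the Jun family the share of Jun was 34.8% to 49.1% in wild-type and 11.7% to 33.6% in Neat1 null libraries, with no overlap. The share of Jund was 20.97% to 29.2% and 28.1% to 57.9%, which overlap only between wild-type library 2 and Neat1 null library 4, and that of Junb was 29.9% to 38.3% and 21.02% to 38.3%. The summed Jun family level was 138 to 153 CPM per kb in wild-type and 176 to 297 CPM per kb in Neat1 null libraries. These shares and sums rest on the same counts as the gene-wise tests and were not tested themselves. Jun has 3189 exon bases and Jund 1668. The Jund share was highest in Neat1 null libraries 1 and 3, which had the most negative length slopes (-0.314 and -0.477). How much of the shares goes with the length slope was not tested. The spread was wider among the Neat1 null libraries, with an SD of 61.5 CPM per kb for that sum against 7.002 in wild-type.

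**Figure D3:**
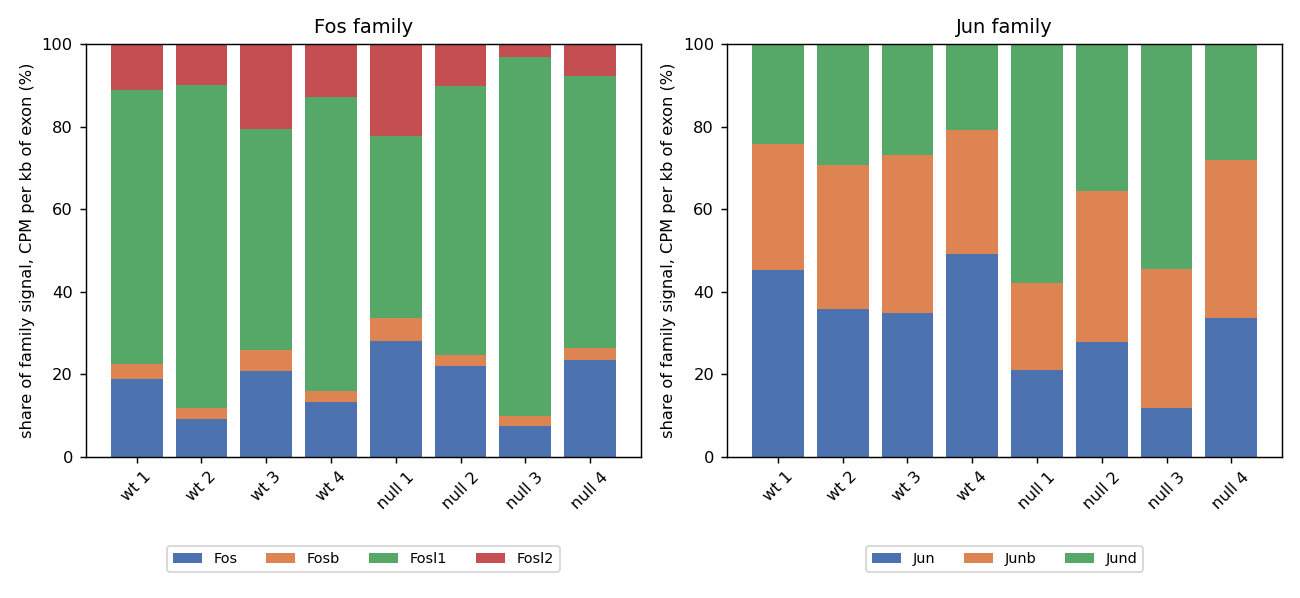
Share of each gene in the summed CPM per kb of exon of the 4 Fos genes (left) and the 3 Jun genes (right), in percent, 1 bar per library (wt, wild-type; null, Neat1 null). Fosl1 takes 44.1% to 87.1% of the Fos family, and the Jund share reaches 57.9% and 54.4% in Neat1 null libraries 1 and 3. These libraries also had the most negative length slopes.

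The Neat1 null libraries did not share 1 pattern over the genes. Library 4 held the highest of the 8 values for 5 genes, Fos, Fosb, Jun, Junb and Atf3. Library 1 held the highest for Ier2 and the lowest for Fosl1 and Junb, and library 3 the highest for Fosl1 and Jund and the lowest for Fosl2 and Jun. Library 2 held the highest for Nr4a1. Among wild-type libraries, library 4 held the lowest value for 5 genes, Fosb, Jund, Atf3, Ier2 and Nr4a1. The share of all genes with their highest or lowest value in each library is not given, so these counts are descriptions only. Summed over the 10 genes, the level was 532 to 666 CPM in wild-type and 942 to 1294 CPM in Neat1 null libraries. Ier2 and Jund made up 515 and 173 CPM of the sum in Neat1 null library 1, against at most 118 and 68.6 CPM in wild-type. The rise of the sum was not shared by all members, since Jun and Fosl2 had log2 fold changes below 0. The sum itself was not tested.

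The 2 risers whose groups did not overlap have the shortest exon sequence of the 10, 1522 bases for Ier2 and 1668 for Jund, and Fosl2, with the lowest log2 fold change, has the longest, 9680 bases. Genes were split into 10 bins of exon length, and in the shortest bin, which holds Ier2 and Jund, the median log2 fold change of 1323 genes was 0.88 and 30.3% were called higher. Jund and Ier2, at 1.47 and 2.28, lay above that median. Atf3 has 2154 bases and shares its bin, with a median of 0.45, with Fos, Fosl1 and Junb, whose values of 0.50, 0.32 and 0.66 lay near it. Nr4a1 and Jun, of 3509 and 3189 bases, share a bin with a median of 0.14. The bins of Fosb and Fosl2 had medians of -0.20 and -0.44, beside 0.02 and -0.40 for these genes. With the length and GC correction the median of the 10 genes was 0.17, beside 0.09 for all genes. The members called were then Atf3 and Ier2, and 1661 genes were called in all (1008 higher, 653 lower) in place of 2356.

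**Figure D4:**
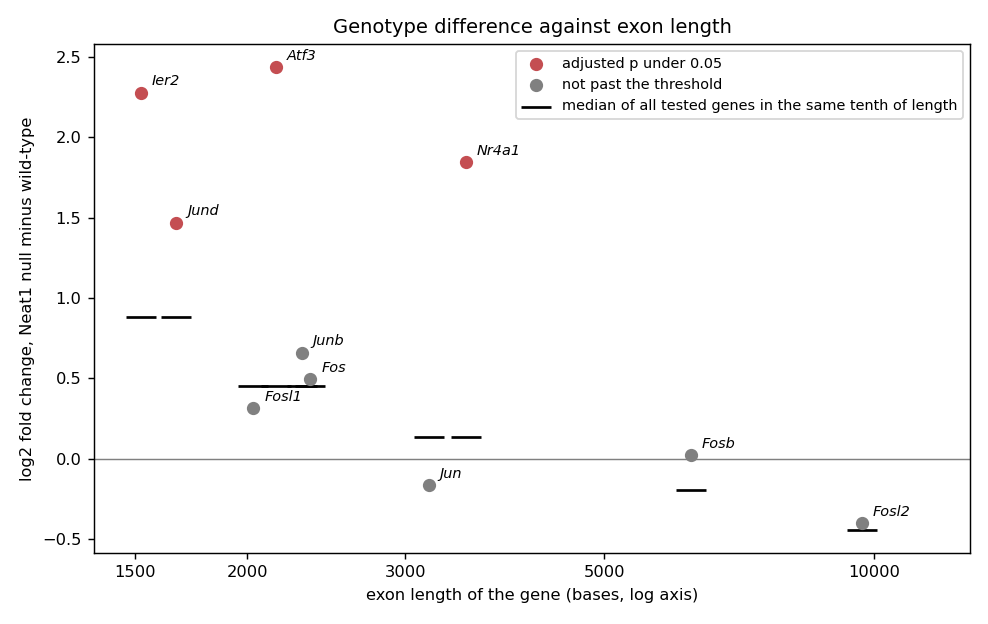
Log2 fold change of each gene (Neat1 null minus wild-type) against its exon length in bases on a log axis (red, past the threshold; grey, not past), with the median of all tested genes in the same length bin as a black dash. Fos, Fosl1, Junb, Jun, Fosb and Fosl2 lie near the dash of their bin, and Atf3, Nr4a1, Ier2 and Jund lie above it.

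Of 30 other immediate early genes, 1 rose and 1 fell, a share of 6.67% beside 17.7% of all genes, with a median log2 fold change of 0.18. DESeq2 called 2 higher and 3 lower, beside 26.1% of all genes by that tool. At an unadjusted p under 0.05 there were 5 of each, with no share of all genes given. Rhob, an early-induced gene, had 57.7, 39.4, 39.2 and 24.5 CPM in wild-type and 107, 72.5, 99.5 and 104 CPM in Neat1 null libraries, with no overlap. Its difference on the log2 scale was 1.25 (SE 0.35, adjusted p = 0.0271), or 0.79 after the length and GC correction (adjusted p = 0.110). Klf4, a Krüppel-like transcription factor, had 9.46, 14.9, 15.2 and 29.0 CPM in wild-type and 3.32, 7.07, 3.17 and 5.33 CPM in Neat1 null libraries, with no overlap in the opposite direction. On the log2 scale Klf4 differed by -1.85 (SE 0.45, adjusted p = 0.0195). Leaving out library 3 or 4 of the wild-type group, or library 3 of the Neat1 null group, ended both calls, and leaving out wild-type library 2 ended that of Rhob (adjusted p = 0.0575), as did sex as a covariate (adjusted p = 0.0511). The list held 7 calls when wild-type library 1 was left out, 5 for Neat1 null library 2 and 1 for wild-type library 2. Library 4 of the Neat1 null group, which held 5 of the highest values above, also held the highest value of 8 of these 30 genes, among them Dusp1, Btg2, Zfp36 and Csrnp1. Library 1 held the lowest value of 13 and the highest of 7, and library 3 the lowest of 8 and the highest of 4. No share of all genes is given beside these counts.

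**Figure D5:**
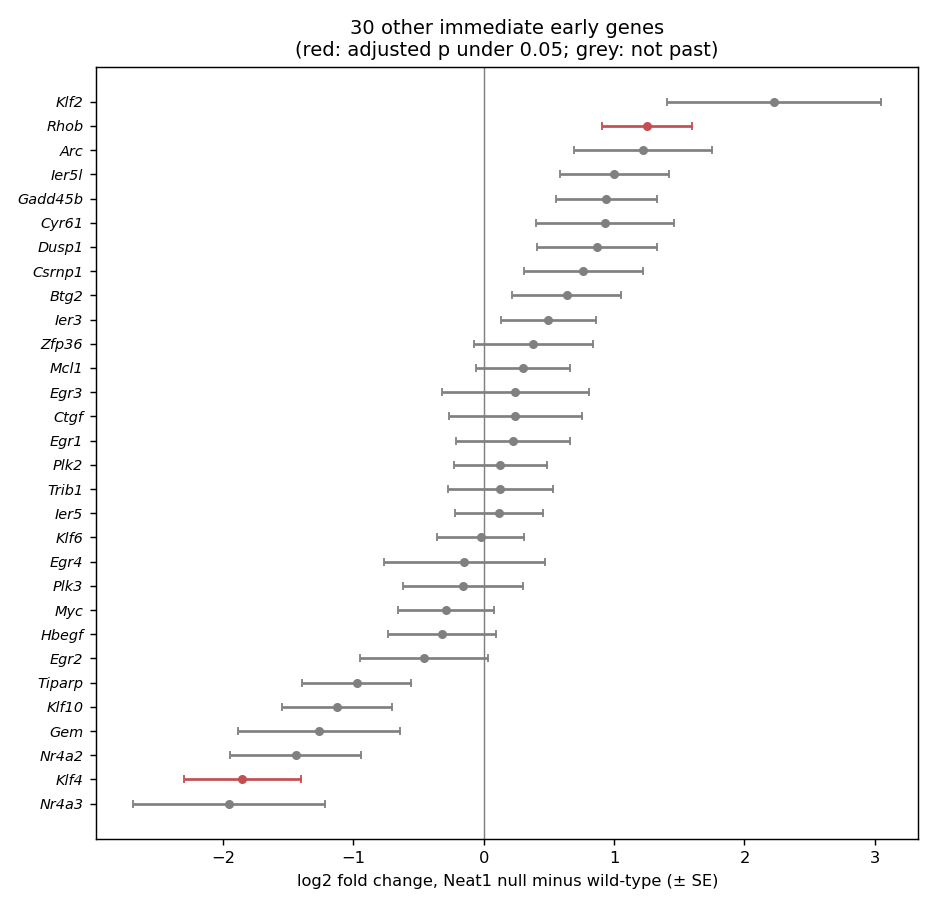
Log2 fold change (Neat1 null minus wild-type, ± SE) of 30 other immediate early genes, with the 2 that passed the threshold in red. Rhob at 1.25 and Klf4 at -1.85 pass, and the rest lie on both sides of 0.

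Among 22 other leucine zipper factors that can pair with or resemble AP-1 proteins, 18 were tested and 0 passed by edgeR, beside 17.7% of all genes, with a median of -0.36. At an unadjusted p under 0.05 there were 3 higher and 3 lower, with no share of all genes given. DESeq2 called 2 and 2, beside 26.1% of all genes by that tool. Atf4, the effector of the integrated stress response and a known activator of Atf3, had the highest mean level over the 8 libraries, though not among wild-type libraries alone, where Nfe2l1 was higher. It had 440, 424, 174 and 166 CPM in wild-type and 489, 570, 1199 and 622 CPM in Neat1 null libraries. Its groups did not overlap, but the log2 fold change of 1.26 (SE 0.46) did not pass (adjusted p = 0.0702). Atf4 passed with DESeq2 (1.32, adjusted p = 0.0193) and, in edgeR, with sex as a covariate (1.99, adjusted p = 0.0308). The fit with sex rests on Neat1 null library 3, the highest for Atf4 at 1199 CPM. Atf4 did not pass after the length and GC correction (0.74, adjusted p = 0.210) or without Neat1 null library 3 (0.90, adjusted p = 0.176). Nfe2l1, whose groups did not overlap either, and Atf6 had log2 fold changes of -0.50 (SE 0.36) and -0.54 (SE 0.36). With sex as a covariate Nfe2l1 passed (adjusted p = 0.0497), in a fit that rests on Neat1 null library 3, its lowest at 127.7 CPM.

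Of 23 tested regulators of AP-1, the kinases, ternary complex factors and ubiquitin ligases that act on it, 1 rose and 1 fell, a share of 8.7% beside 17.7% of all genes, with a median of -0.09. Map2k2, the Erk kinase kinase Mek2, had 156, 113, 87.9 and 95.9 CPM in wild-type and 823, 144, 469 and 209 CPM in Neat1 null libraries, which overlap. It differed by 1.86 on the log2 scale (SE 0.50, adjusted p = 0.0252), by 1.27 when Neat1 null library 1 was left out (adjusted p = 0.0559) and by 0.63 when library 3 was left out as well (adjusted p = 0.214). With sex as a covariate it did not pass (2.05, adjusted p = 0.0574). Elk3, an Ets factor that acts with serum response factor at early genes, had 75.8 to 199 CPM in wild-type and 37.2 to 59.0 CPM in Neat1 null libraries, with no overlap. It differed by -1.60 on the log2 scale (SE 0.38, adjusted p = 0.0190), and -1.51 after the length and GC correction (adjusted p = 0.0347).

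Of 24 genes known as AP-1 targets, 21 were tested, 3 rose and 2 fell, a share of 23.8% beside 17.7% of all genes, with a median of -0.35. The risers were the metallothionein genes Mt1 and Mt2 and the protease inhibitor gene Timp1. Mt2 had 10.7 to 37.4 CPM in wild-type and 79.0 to 203 CPM in Neat1 null libraries. On the log2 scale Mt2 differed by 2.54 (SE 0.45, adjusted p = 0.0180), and by 1.56 after the length and GC correction (adjusted p = 0.0438). Mt1 and Timp1 had log2 fold changes of 2.49 (SE 0.59) and 2.33 (SE 0.53), and 1.65 and 1.39 after the length and GC correction, where they did not pass (adjusted p = 0.0552 and 0.0850). With sex as a covariate Timp1 did not pass either (1.41, adjusted p = 0.154). None of the 3 overlapped between the groups. The stromelysin gene Mmp3 fell (-3.38 on the log2 scale, adjusted p = 0.0253) at low levels. It had 0.353 to 7.88 CPM in wild-type and 0.0353 to 0.973 CPM in Neat1 null libraries. These groups overlapped, with wild-type library 2 the lowest of its group. Hmga2, a chromatin protein gene of transformed cells, fell too, from 568 to 1406 CPM in wild-type to 99.3 to 352 CPM in Neat1 null libraries (log2 fold change -1.97, SE 0.49, adjusted p = 0.0201). Leaving out wild-type library 3 or 4, or library 3 of the Neat1 null group, also ended the calls of Map2k2, Elk3, Mt1, Mt2, Timp1 and Hmga2.

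Genes with the most similar profile were ranked by Pearson's r of log2 CPM over the 8 libraries among the 11787 genes whose average log2 CPM reached 1. For Fosl1 these were Syvn1 (r = 0.983), Atxn7l3 (0.971) and Naa60 (0.968), and for Fos Mpzl3 (0.927), Peg13 (0.917) and Pitx1 (0.915). With 8 libraries and this many genes such values describe the ranking only, and the libraries share their genotype and length differences. None of these 6 genes passed the threshold between genotypes.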

How the data were processed

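RNA-seq counts of 8 libraries were used, 4 wild-type and 4 Neat1 null, grouped by the labels' titles. The values are the authors' deposited read counts by gene symbol, not normalized. CASAVA 1.8, STAR, DESeq2 and mm10 appear without a role in the submitters' processing notes; the counter, its strand setting and its annotation are not given in the sources used here. The entries for reads outside genes (5.48% to 15.7% of counts) and ambiguous reads (1.09% to 1.76%) were left out.

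With R 4.3.3 and edgeR 4.0.16, genes passing filterByExpr (minimum count 10) were scaled with TMM factors and tested with the robust quasi-likelihood F test (2-sided, genotype only), adjusted by Benjamini-Hochberg over 13316 genes. The SE is the log2 fold change divided by the square root of F. Counts of the 10 genes ranged from 74 to 10945 per library. The lowest chi-square per degree of freedom between libraries of a group was 64.9, so no library was a duplicate. Exon lengths and coordinates came from GENCODE M21 (GRCm38, also called mm10), where 98.5% of symbols matched. The length and GC correction used splines with 5 degrees of freedom per library as offsets. Alternatives were other size factors, filters, thresholds, DESeq2 1.42.0, a replicate block, sex, and libraries left out. Named genes were the 10 members, Neat1, up to 4 called genes of each of 4 lists with the smallest p (or the 3 most abundant), and 3 similar genes each for Fos and Fosl1. Mmp3, Dusp1, Btg2, Zfp36, Csrnp1 and the markers are named outside this rule. The members and lists were chosen with earlier results of these data known. On simulated data (13200 genes tested) the fit found 4% of 2-fold, 60% of 4-fold and 88% of 8-fold changes, and 6.02% of calls were false. The simulation gave 133 calls, against 2356 in the data, and held no length or sex differences. Its rates may therefore not hold for these data.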

Additional observations from a re-analysis of the deposited data

Results flagged for a closer look

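Nfe2l1, a leucine zipper factor gene of the list of possible partners, had 127.7 CPM in Neat1 null library 3, against 248.5 to 267.7 CPM in the other 3 Neat1 null libraries. The gap took up 0.862 of the range of that group, above Dixon's critical value for 4 libraries. It was the 1 such library among 44 groups of 4 checked, and chance alone sets apart about 1 in 20 groups. None of the 10 AP-1 and immediate early genes had a library set apart in this way.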

How the results depend on the processing

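Counts of the 10 genes called were 4 with RLE or upper-quartile factors, either other filter, no robust option, DESeq2 or a log2 fold change of at least 1, and 3 with sex as a covariate (Jund and Ier2 higher, Fosl2 lower, with Atf3 and Nr4a1 not past the threshold). They were 2 after the length and GC correction, 0 at an adjusted p under 0.01, and 0 to 4 with 1 library left out. Without Neat1 null libraries 1 and 3 the count was 0. It was 6 there at an unadjusted p under 0.05, with no share of all genes given. In the fit with sex, library 3 alone of the Neat1 null group has the sex of the wild-type libraries. That library had the most negative length slope (-0.477). Ier2 and Jund have the shortest exon sequence of the 10 and Fosl2 the longest. The part of length in that fit was not tested. For the 30 other early genes the count was 1 with the length and GC correction, 5 with DESeq2, 4 with the replicate block, 0 without Neat1 null libraries 1 and 3, 0 at an adjusted p under 0.01, and 0 to 7 with 1 library left out. Over all genes it was 7 without Neat1 null libraries 1 and 3, 7 at an adjusted p under 0.01, and 11 to 2965 with 1 library left out. The cause was not tested. Fewer libraries also leave fewer degrees of freedom. With upper-quartile factors 1036 genes were higher and 1428 lower, against 1328 and 1028, and the all-gene median was -0.24 against -0.06 on the log2 scale. With the replicate block the split was 1093 and 1152, with sex 1784 and 1595.

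Log2 fold changes that changed sign were those of Fos (-0.18) and Nr4a1 (-0.16) with sex as a covariate, Fosb (-0.15 with upper-quartile factors, -0.0012 with at least 1 CPM in 4 libraries, -0.11 to 0.16 with 1 library left out), Fosl1 (-0.29 after the length and GC correction, -0.13 to 0.62 with 1 library left out), Jun (0.21 without Neat1 null libraries 1 and 3, -0.54 to 0.0032 with 1 library left out) and Atf6 (0.16 after the length and GC correction). Apart from Nr4a1 none of these was called. Jund, Atf3 and Ier2 kept their sign in all 18 other fits. Same-numbered libraries did not deviate together (r = 0.317, -0.258, -0.0140 and 0.108 for numbers 1 to 4), so the numbers were not taken as pairs. With the replicate block 3 of the 10 genes and 2245 genes in all were called, and not every library correlated best with its own number. In the simulated data changes near 2-fold were mostly not found, a rate that may not hold for these data.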

Other observations

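The other Nr4a receptor genes, looked at after their values were seen, lay on the other side of 0 from Nr4a1. Nr4a2 had 4.19, 5.37, 10.95 and 10.2 CPM in wild-type and 2.96, 3.84, 1.23 and 3.26 CPM in Neat1 null libraries, with no overlap. Its log2 fold change of -1.44 (SE 0.50) did not pass in edgeR's test (adjusted p = 0.0584). Nr4a3 had 0.583 to 1.68 CPM in wild-type and 0 to 0.587 CPM in Neat1 null libraries, and differed by -1.95 on the log2 scale (SE 0.74, adjusted p = 0.0742). The difference between the 3 receptor genes was not tested.

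Egr1, the most abundant of the other early genes, had 1007, 1174, 957 and 705 CPM in wild-type and 493, 1073, 1480 and 1446 CPM in Neat1 null libraries. It differed by 0.23 on the log2 scale (SE 0.44). Dusp1, the phosphatase gene that switches off the kinases upstream of AP-1, had at most 19.9 CPM in wild-type and 8.89, 35.3, 21.9 and 59.4 CPM in Neat1 null libraries. As for Atf3 and Junb, Neat1 null library 1 was not among those above the wild-type range of Dusp1.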
